A study of Homo sapiens with 6 samples.

Results

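The Krüppel-like factors described here are KLF2, KLF3, KLF4, KLF5, KLF6, KLF7, KLF9, KLF10, KLF11 and KLF13. They were chosen by gene symbol, with earlier results of these data known. Each of the 10 had 1 row among the 28395 genes of the deposited RNA-seq table. The table comes from A375 cells, an established human melanoma line with the genotype given as wild type. The cells were exposed for 6 h to plain olive oil (OLO), which served as the control, or to ozonated olive oil (OZO), each at 0.01%. Each group had 3 libraries, and cells without oil were not analysed here. A375 is a single line, so donors and other melanomas are not represented.

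The values used are the means over all 6 libraries, OLO and OZO together, as the authors deposited them. They are levels of mRNA in oil-treated A375 cells as a whole. The difference between OZO and OLO is not reported for any gene, because only means over the libraries could be analysed and the columns of the authors' own comparison were not used. For the same reason the spread between libraries is unknown, apart from a bound for KLF2.

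Krüppel-like factors are DNA-binding proteins with a block of zinc fingers at the C-terminal end, through which they recognise GC-rich and CACCC elements of promoters. Outside the zinc fingers the members differ, and this part recruits the cofactors. KLF2, KLF4, KLF5, KLF6 and KLF7 are usually grouped as activators. KLF3 binds the co-repressor CTBP, and KLF9, KLF10, KLF11 and KLF13 bind the co-repressor SIN3A. Several of the family, among them KLF4, KLF6 and KLF10, are known as genes that respond within hours to serum, growth factors or stress.

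The depth was read from the weakest genes of the table. The lowest mean, −5.20 log2 CPM, which is the read count relative to the size of its library, was shared by 7012 genes and corresponds to no read in any library. It implies a geometric mean library size of 18409903 reads, after the authors' scaling of the libraries. A gene's level can thus be turned into an implied number of reads per library, which is a geometric mean. All 10 members had at least 10 implied reads, as had 13773 genes of the table. Levels of different genes are compared only as CPM per kilobase of the canonical transcript in GENCODE 44, and the ranges given with them are 95% intervals for counting error alone, which leave out the spread between libraries and take the reads as evenly divided among them.

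Per kilobase of the canonical transcript, KLF5 had the highest level of the 10, and KLF13 had the lowest. Because these 2 genes mark the ends of the range, the 250 bases before their start sites are printed from RefSeq (GRCh38.p14, 5′ to 3′ on the plus strand). Capitals mark the GC box, GGGCGG or its reverse complement CCGCCC, and the CACCC element or its reverse complement GGGTG, both of which are classical recognition elements of the KLF and SP families. The KLF5 stretch is chr13:73058755-73059004. It lies before the canonical transcript but within an intron of KLF5 transcripts that start further upstream in GENCODE 44. The KLF13 stretch is chr15:31326585-31326834, which overlaps no annotated transcript.
KLF5: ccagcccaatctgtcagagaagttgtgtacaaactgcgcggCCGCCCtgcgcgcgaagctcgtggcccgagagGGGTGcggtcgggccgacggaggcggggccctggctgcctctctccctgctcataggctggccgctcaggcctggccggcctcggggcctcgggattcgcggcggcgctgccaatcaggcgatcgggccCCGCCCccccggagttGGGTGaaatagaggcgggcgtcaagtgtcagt
KLF13: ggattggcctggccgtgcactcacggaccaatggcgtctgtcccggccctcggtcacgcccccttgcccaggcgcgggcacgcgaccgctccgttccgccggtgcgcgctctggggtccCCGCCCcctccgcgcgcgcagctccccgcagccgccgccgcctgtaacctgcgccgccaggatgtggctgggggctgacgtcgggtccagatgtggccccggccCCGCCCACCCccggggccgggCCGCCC

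The KLF5 stretch held 2 GC boxes and 2 CACCC elements with a GC content of 70.8%, and the KLF13 stretch held 3 GC boxes and 1 CACCC element, which overlaps a GC box, with a GC content of 78.8%. Both stretches thus held both elements. KLF2, which was the lowest member by some of the other lengths tried, had 4 GC boxes and no CACCC element. A RefSeq promoter was matched for 8 of the 10 members, and for each the start site nearest to that of the canonical transcript was taken. For KLF11 that site lay 279 bases from the canonical start, and for the other matched members it was the same. Like the KLF5 stretch, those of KLF4, KLF7 and KLF11 lay within the annotated span of the gene, and that of KLF6 did in part. A GC box was present in 6 of the 8 stretches, while 42.6% of all 35116 stretches of the same length held one. The median GC content of all stretches was 58.0%, and the share was not taken among stretches of like GC content. A CACCC element was present in 3 of the 8, against 54.7% of all stretches. KLF9 stood apart in base composition, with a GC content of 32.4% and neither element, whereas the other matched members lay between 58.0% and 80.0%. KLF2 and KLF4 had the most GC boxes of the 8, with the same number. These matches describe the letters of the stretches and not bound sites.

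Among the activators, KLF5 and KLF6 stood above the others. KLF5 (NCBI Gene 688, chromosome 13, 73054976 to 73077541, plus strand), which promotes proliferation in epithelial cells, had a mean of 6.41 log2 CPM, an implied 1565 reads per library, and 25.4 CPM per kilobase (24.9 to 25.9). KLF6 (Gene 1316, chromosome 10, 3775996 to 3785281, minus strand), a broadly expressed factor that is often described as a growth suppressor, had a mean of 5.63 log2 CPM, an implied 910 reads and 10.8 CPM per kilobase (10.5 to 11.1). KLF5 alone made up 30.7% of the summed level of the 10 members per kilobase. Its canonical transcript has 4 exons and 3349 bases, of which 41.0% are coding.

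KLF4 (Gene 9314, chromosome 9, 107484852 to 107490482, minus strand), a reprogramming factor and a regulator of epithelial differentiation, had a mean of 4.20 log2 CPM, an implied 338 reads and 6.27 CPM per kilobase (5.999 to 6.54). That placed KLF4 below KLF5 and KLF6 but above the remaining activators. KLF7 (Gene 8609, chromosome 2, 207074137 to 207173856, minus strand), known for its part in neurite outgrowth, had a mean of 3.47 log2 CPM and an implied 204 reads. Its canonical transcript is the longest of the members with 8365 bases, so its level per kilobase was only 1.33 (1.25 to 1.40). KLF2 (Gene 10365, chromosome 19, 16324826 to 16328685, plus strand), a factor of quiescent T cells and of endothelium under flow, had the lowest mean on the CPM scale, 1.96 log2 CPM with an implied 71.3 reads. Per kilobase KLF2 reached 1.38 (1.26 to 1.52), and its counting interval overlapped that of KLF7. The activators therefore spanned most of the range of the family, from 1.33 to 25.4 CPM per kilobase, with a median of 6.27.

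The SIN3A-binding repressors were as widely spread. KLF10 (Gene 7071, chromosome 8, 102648784 to 102655725, minus strand), an early gene of the TGF-β response, had a mean of 5.84 log2 CPM, an implied 1055 reads and 19.7 CPM per kilobase (19.2 to 20.2). KLF9 (Gene 687, chromosome 9, 70384604 to 70414657, minus strand), which is induced by glucocorticoid and thyroid hormone and by oxidative stress, had a mean of 5.27 log2 CPM, an implied 711 reads and 7.43 CPM per kilobase (7.21 to 7.66). These 2 repressors lay above KLF4, KLF2 and KLF7 among the activators. KLF11 (Gene 8462, chromosome 2, 10042849 to 10054836, plus strand), which like KLF10 is induced by TGF-β, had a mean of 2.87 log2 CPM, an implied 134 reads and 1.82 CPM per kilobase (1.70 to 1.95). KLF13 (Gene 51621, chromosome 15, 31326835 to 31435665, plus strand), known as a regulator of chemokine expression in T cells, had a mean of 2.35 log2 CPM, an implied 93.1 reads and 0.743 CPM per kilobase (0.684 to 0.807). The median of the 4 genes was 4.62 CPM per kilobase.

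KLF3 (Gene 51274, chromosome 4, 38664197 to 38701517, plus strand), the CTBP-binding member, had a mean of 5.45 log2 CPM, an implied 804 reads and 7.81 CPM per kilobase (7.59 to 8.03). Its interval overlapped that of KLF9. Among the genes annotated to overlap a member, KLF3-AS1 lies on the opposite strand over 730 bases of KLF3 and had an implied 0.355 reads. MIR2355, within KLF7, had 0.154 implied reads, and MIR7845, opposite KLF7, had none. Few or no reads were therefore counted for these 3 genes. Further annotated genes without a row of their own in the table overlap KLF4, KLF7, KLF11 and KLF13, the longest being MYOSLID over 7737 bases on the strand opposite to KLF7. The libraries were directional, but whether strand was used in the counting is not given in the sources used here.

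Per kilobase, the descending order was KLF5, KLF10, KLF6, KLF3, KLF9, KLF4, KLF11, KLF2, KLF7 and KLF13. KLF5 exceeded KLF13 by 34.2-fold, a ratio that ranged from 8.31 with the median transcript to 42.9 with the summed exons. The first 3 of these genes together held 67.6% of the summed level. The widest gap between neighbours was that between KLF4 and KLF11, where the level differed 3.45-fold, with 6 members above it and 4 below. This gap depended on the length. It lay between KLF10 and KLF4 with the coding length (3.11-fold), between KLF9 and KLF4 without division (2.101-fold) and between KLF6 and KLF3 with the median transcript (2.29-fold). Of the 9 neighbouring pairs, 2 had overlapping counting intervals, KLF3 with KLF9 and KLF2 with KLF7. For the other 7 pairs the levels differed by more than counting error, but they cannot be set against the spread between libraries. An overlap of 2 such intervals does not show that the levels were equal within counting error.

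**Figure D1:**
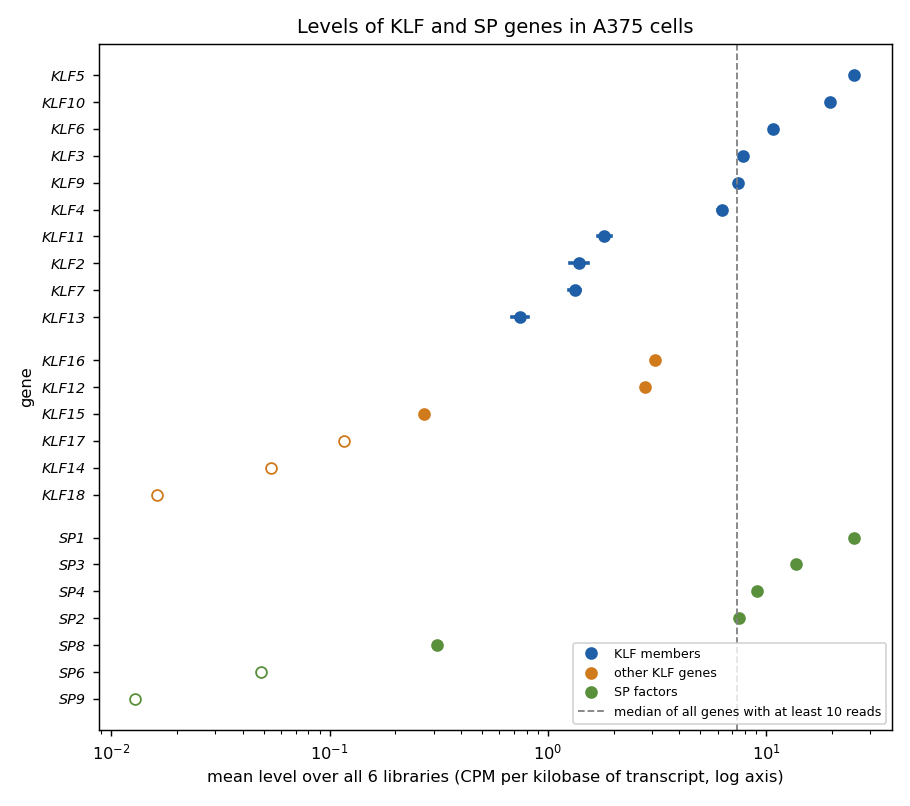
Mean level over the 6 libraries in CPM per kilobase (log axis) of the 10 KLF members, the other KLF genes and the SP factors. Points are the pooled means, horizontal lines are 95% counting intervals of the members, open points are genes under 10 implied reads, genes with no read are left out, and the dashed line is the median of all genes with at least 10 reads. The members run from 0.743 for KLF13 to 25.4 for KLF5.

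The order rested in part on the length by which a level was divided. KLF5 was the highest member under every length tried, and on the CPM scale without division. KLF4 was the sixth in each case. The lowest place was less settled, as KLF2 took it in place of KLF13 on the CPM scale and with the median transcript or the coding length. KLF13 moved the most, from the tenth to the fifth place with the median transcript, and KLF10 fell from rank 2 to rank 5 with the coding length.

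**Figure D2:**
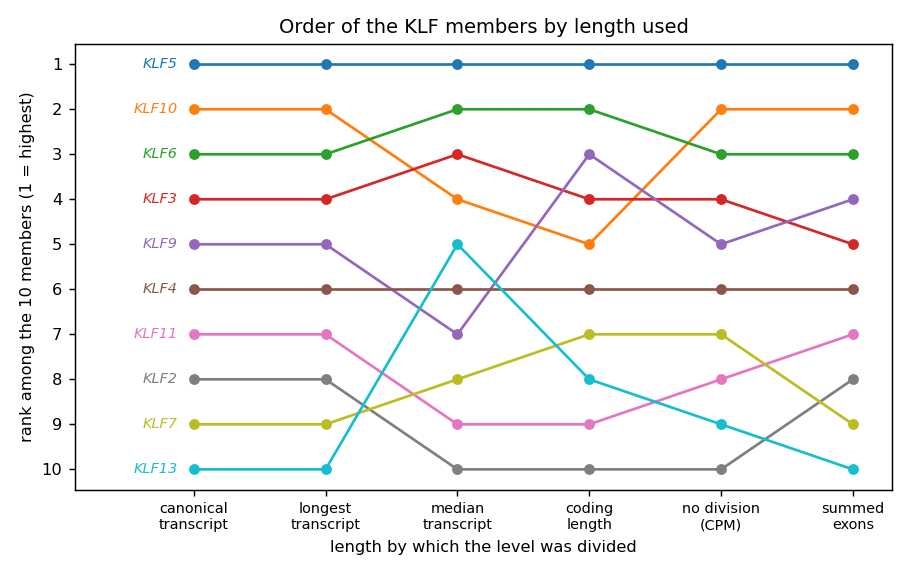
Rank of each of the 10 members (1 is the highest level) when the mean level was divided by the length named on the horizontal axis, or by none. KLF5 and KLF4 keep their ranks across the 6 settings, and KLF13 varies between rank 5 and rank 10.

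Set among the 13313 genes with at least 10 implied reads and a transcript length, the members lay around the middle of the distribution, with a median percentile of 48.4. Their median was 6.85 CPM per kilobase and that of all these genes was 7.39, with 5 members above it and 5 below. The placing changed with the genes they were set among, since the median percentile was 73.0 among all 25497 genes with a length, unread ones included, and 72.1 among 519 read zinc finger factors. Among the 13313 genes, KLF5 exceeded 78.7% and KLF10 exceeded 73.5%. KLF6 exceeded 59.0%, and KLF3 and KLF9 lay at the centre with 51.5% and 50.2%. KLF4 exceeded 46.5%. KLF11, KLF2, KLF7 and KLF13 exceeded 24.3%, 20.9%, 20.3% and 13.3% of the genes.

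**Figure D3:**
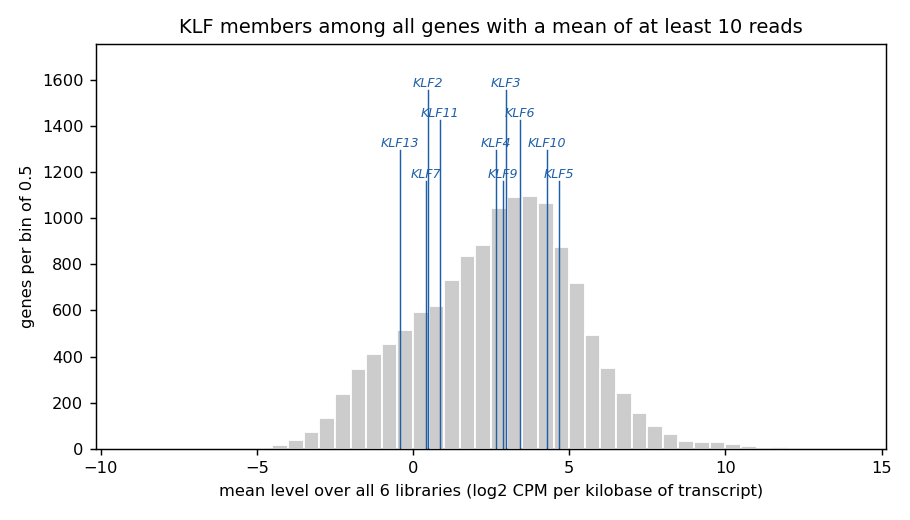
Number of genes per bin of 0.5 in log2 CPM per kilobase, for the 13313 genes with at least 10 implied reads and a transcript length, with the 10 members marked by vertical lines whose height has no meaning. KLF13 lies at the 13.3rd and KLF5 at the 78.7th percentile.

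The mean of KLF2 holds more than its size. Since 0.5 is added to each count before the logarithm, a mean taken over 6 libraries encodes 6 odd numbers multiplied together, each being 2 times the count of a library plus 1. They were recovered by scaling the mean to the lowest one of the table. For KLF2 the product was 8765134766325, at a distance of 0.099 from the deposited value. Its largest prime factor is 311, which has to divide the number of a single library, so at least 1 library held 155 or more reads of KLF2. The other 5 libraries then had a geometric mean of at most 61.0 reads. With 0.5 added to both, the highest library lay at least 2.53-fold above that mean, though not necessarily above each single library. The most even division of the product gives 54, 55, 59, 67, 72 and 155 reads, although 219439 divisions are possible.

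In raw reads, KLF2 was thus unevenly divided among the libraries. Of the 319 genes with products of like size, 6 (1.88%) had a bound at least as far above their own mean, 2.17-fold for KLF2, and the median was 1.24-fold. Such a bound can be low for an unevenly read gene as well, because it depends on the factors of the product. The counts are not scaled for library size, and neither the library nor its group is known. The products of the other 9 members were too large to be recovered from the digits of the deposited means.

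The remaining KLF genes were read unevenly. Of the 8, KLF12, KLF15 and KLF16 had at least 10 implied reads, where 13773 of the 28395 genes of the table did. The members and these 8 genes were separated with earlier results of these data known. Their counts are therefore not a result about the family. KLF12 had an implied 565 reads, and KLF1 and KLF8 had no read in any library. KLF16, a SIN3A-binding repressor, was the highest of them with 3.10 CPM per kilobase, which lies between KLF4 and KLF11. KLF12, a CTBP-binding repressor, had 2.78. The 9 SP factors, which carry the same kind of zinc fingers, included 5 with at least 10 implied reads, and SP5 and SP7 had none. SP1, the general activator at GC boxes, was the highest with 25.2 CPM per kilobase, close to KLF5 at 25.4. This closeness depended on the length, since without division SP1 had 193.9 CPM and KLF5 had 85.0.

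Genes of cofactors of KLF proteins, and of ubiquitin ligases that target KLF proteins, were read throughout. All 15 listed genes of these 2 kinds had at least 10 implied reads, as had 13773 of the 28395 genes of the table. The median of the 15 was 14.2 CPM per kilobase. The deacetylase HDAC1 was the highest with 98.9. The ubiquitin ligase component FBXW7 was the lowest with 5.06. SIN3A had 19.2 CPM per kilobase, and CTBP1 had 24.9 and CTBP2 had 9.40, all above the median of the members. KLF10 at 19.7 had a counting interval that overlapped that of SIN3A (18.9 to 19.5), and the other SIN3A-binding members lay below it. Without division by length, KLF10 had 57.4 CPM and SIN3A had 129.1. All 15 listed upstream regulators, among them kinases, MEF2 factors, SMAD proteins and the glucocorticoid receptor NR3C1 that act on KLF genes in other cells, were read as well. Their median was 9.37 CPM per kilobase, from 2.08 for FOXO1 to 26.9 for ELK1.

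The label of the cells was compared with marker genes. Of 8 melanocyte and melanoma markers, 5 had at least 10 implied reads, as had 13773 of the 28395 genes of the table. Such counts alone therefore say little about the identity of the cells. SOX10 had 17.3 and MITF 5.65 CPM per kilobase. The pigment cell genes were weaker. TYR had no read, and PMEL and DCT had 5.75 and 4.74 implied reads. TYRP1 and MLANA had 11.0 and 36.6 implied reads, or 0.216 and 0.866 CPM per kilobase. All 4 markers of dedifferentiated melanoma had at least 10 implied reads, but their levels differed widely. AXL had 56.6 and NGFR 11.1 CPM per kilobase. EGFR at 2.86 and SOX9 at 1.18, like MITF, lay below the median of all genes with at least 10 implied reads, 7.39. Of the 3 red cell, 3 endothelial and 4 leukocyte markers, 0, 1 and 1 had at least 10 implied reads. Of 6 keratinocyte and 6 fibroblast markers, 2 and 3 did, namely KRT10, KRT14, LUM, COL1A1 and PDGFRA, and of these KRT10 at 11.9 CPM per kilobase was the highest.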

How the data were processed

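RNA-seq of A375 cells treated with OLO or OZO (3 libraries each) was examined. Per the labels and the methods, the authors aligned directional paired-end reads to hg38 with HISAT2 (2.1.0), counted them per gene with featureCounts (2.1.1) and used limma-voom (3.58.1). The deposited log2 values used here are the authors' means of log2 CPM over all 6 libraries, with 0.5 added to each count. The other 5 numeric columns hold the authors' own comparison of OZO with OLO (fold change, t, p-value, adjusted p-value and log odds) and were not used. No test between the groups was therefore made.

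Reads were implied from the distance to the lowest mean. This procedure was run on simulated means built with the same formula, which does not test how the deposited means were built. Products of odd numbers were factorised with SymPy (1.14.0). For all 17752 genes with a product under 1e+13, the product lay within 0.35 of an odd whole number. Lengths came from GENCODE 44 (hg38), matched by Ensembl identifier for 25497 genes. Means were divided by the canonical transcript length in kilobases, with the longest, median and coding length, the summed exons and no division as alternatives. Genes named are the 10 members, and of each other list the highest, the lowest or unread ones, with further genes named after their values were seen. The members and lists were chosen with earlier results of these data known.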

Additional observations from a re-analysis of the deposited data

How the results depend on the processing

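All 10 members had at least 10 implied reads, and the lowest of them, KLF2, had 71.3. A minimum of 1, 5 or 20 reads, or keeping the added 0.5, could therefore not change that count. At a minimum of 100 reads, 8 members remained. Of the 45 pairs of members, 45 kept their order with the longest transcript, 42 without division by length, 37 with the coding length, 35 with the median transcript and 44 with the summed exons, the last of which was chosen after the data were seen. The median percentile of the members was 48.4 among genes with at least 10 implied reads, 73.0 among all 25497 genes with a length, where unread genes enter below, and 72.1 among 519 read zinc finger factors, so the members lay near the middle of the first set and above the middle of the other two.

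No paired analysis was possible because the deposited means pool the libraries. The alternatives that need single libraries (other normalizations, filters and tools, and leaving out a replicate) and the identity of the zinc finger regions, for which no protein table was used here, were not run.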

Other observations

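Among the weaker relatives, the product of odd numbers also bounds the highest library. KLF14 had a geometric mean of 2.99 reads and at least 1 library with 14 or more, KLF15 had a mean of 12.2 and at least 1 library with 23 or more, and KLF17 had a mean of 6.27 and at least 1 library with 11 or more. SP8 had a mean of 20.2 reads and at least 1 library with 48 or more. For SP9 the product was 3, so exactly 1 read was counted in 1 of the 6 libraries. For KLF18 the product was 45, which leaves 4 divisions, the most even being 2 reads, 1 read and 1 read in 3 libraries and none in the others. These are counts unscaled for library size, with the libraries unknown.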
